A study of Mus musculus with 6 samples.

Results

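Expression of 10 tubule injury and dedifferentiation genes (*Lcn2*, *Havcr1*, *Spp1*, *Clu*, *Vcam1*, *Sox9*, *Cd44*, *Vim*, *Cp* and *Cd24a*) was examined in cystic mouse kidneys by RNA sequencing. The genes were chosen by name as injury markers and as genes of dedifferentiated tubule cells, and they account for 30 of the 54721 transcript entries and 10 of the 23276 gene symbols listed. Total RNA came from 6 whole kidneys taken at postnatal day 22 by their labels, whereas the study's text gives a slightly younger age. Of these, 3 carried KspCre with the Pkd1 F/RC genotype (SKO), and 3 carried KspCre with Pkd1 F/RC and miR17~92 F/F (DKO). Both groups thus shared KspCre, a Cre recombinase driven in renal tubules, and a *Pkd1* genotype that combines a floxed allele with the hypomorphic RC allele. In DKO kidneys the miR-17~92 cluster was floxed as well. Cre acts only in tubules, whereas the RNA also held glomeruli, vessels, interstitium and blood cells.

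When tubule cells are injured they lose transport functions, take on features of immature epithelium and release or display a set of proteins that serve as injury markers. In cystic kidneys this response is known to accompany cyst growth. *Lcn2* (*Ngal*) and *Havcr1* (*Kim1*) are in common use as kidney injury markers, and the other genes encode secreted, cell surface, cytoskeletal or nuclear proteins of the injured or immature tubule.

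The study set SKO against DKO kidneys to ask which genes respond to loss of miR-17~92. Abundance is available here only as the authors' mean over all 6 kidneys, in log2 CPM (counts scaled to library size), for each transcript. No value belongs to a single kidney or to a group, so no difference between SKO and DKO is given, the spread between kidneys and the depth of each library are unknown, and no level below has an error. A mean may be carried by 1 group or 1 kidney. None of the 6 kidneys had a normal *Pkd1* genotype, so a high level does not show that a gene was raised by injury. In bulk RNA, fewer cells of a type and less RNA per cell cannot be told apart. The targeted loci were listed at means of 4.21 CPM for *Mir17hg*, the host transcript of the cluster, and 31.8 CPM for *Pkd1*, and such means do not check the genotypes.

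The mature miRNAs of the deleted cluster are shown because they define the sequence that separates the 2 genotypes. They are taken from RefSeq (GRCm38.p6, forward strand of chromosome 14) and written 5′ to 3′, with the seed (bases 2 to 8) in capitals.
miR-17-5p: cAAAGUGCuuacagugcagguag
miR-20a-5p: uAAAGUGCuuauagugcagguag
miR-18a-5p: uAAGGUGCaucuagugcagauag
miR-19a-3p: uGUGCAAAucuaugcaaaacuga
miR-19b-3p: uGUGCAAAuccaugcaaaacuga
miR-92a-3p: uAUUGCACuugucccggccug
miR-17 and miR-20a share a seed, as do miR-19a and miR-19b, so the 6 miRNAs carry 4 seeds.

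The 3′ untranslated regions of the 10 genes were searched on the transcript strand for letters pairing with these seeds. The match to miR-17 and miR-20a, GCACTTT, was found in 2 of the 10 genes, *Spp1* and *Cp*, once in each. Among 12484 genes listed at 1 CPM or more with an annotated 3′ untranslated region, 13.7% held it. The matches to miR-18a (GCACCTT), miR-19 (TTTGCAC) and miR-92a (GTGCAAT) were found in 0 of the 10 genes, beside 8.60%, 12.0% and 7.06% of all genes. At least 1 of the 4 matches was present in 31.4% of all genes. The pair of sites is printed because they are the places where the injury genes contain a full seed match, with the match in capitals and 10 bases on either side.
*Spp1*: aaaagcttctGCACTTTgcttctgttc
*Cp*: acaccaagatGCACTTTgtaaaactct
The *Spp1* match lies at chr5:104440815-104440821 (mm10, forward strand), at positions 197 to 203 of a 425 nt 3′ untranslated region in exon 6 of 6, and was present in all 4 annotated *Spp1* transcripts examined. The *Cp* match lies at chr3:19993076-19993082 (mm10, forward strand), at positions 551 to 557 of a 613 nt 3′ untranslated region in exon 19 of 19. It was present in 1 of 3 annotated *Cp* transcripts. A match is a run of letters and not evidence that the miRNA binds there.

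**Figure D1:**
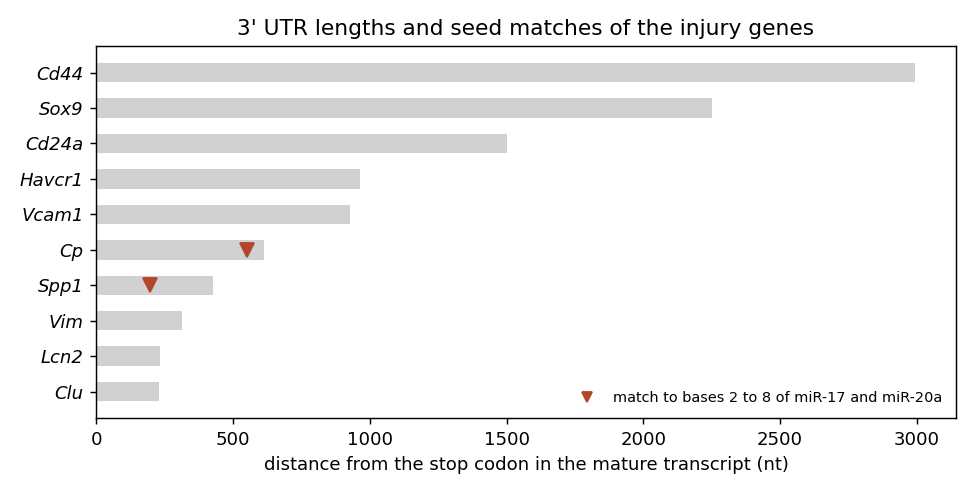
Length of the 3′ untranslated region of each injury gene (grey bars, nt from the stop codon along the mature transcript) with the position of each match to bases 2 to 8 of miR-17 and miR-20a (red triangles). *Spp1* and *Cp* hold 1 match each, at positions 197 and 551, and the longest regions, of *Cd44* (2992 nt) and *Sox9* (2250 nt), hold none.

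The regions of the injury genes had a median of 770.5 nt, beside 1030.5 nt over all genes, and ranged from the 12.7th to the 86.4th percentile of all genes. *Clu* (230 nt), *Lcn2* (232 nt) and *Vim* (312 nt) had the shortest, each below the 20th percentile of all genes. *Cd44* (2992 nt), *Sox9* (2250 nt) and *Cd24a* (1500 nt) had longer regions than the median gene but no full match to any of the 4 seeds. With the shorter match to bases 2 to 7 of miR-17 (CACTTT), *Sox9* and *Cd44* also had 1 match each, so that 4 of the 10 genes held it beside 38.8% of all genes. The shorter match to miR-18a (CACCTT) was found in 4 of the 10, *Clu*, *Vcam1*, *Sox9* and *Cp*, beside 33.2% of all genes. That to miR-19 (TTGCAC) was found in *Vim* alone, beside 25.4%, and that to miR-92a (TGCAAT) in *Sox9* and *Cd44*, beside 24.4%.

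The 10 genes differed widely in abundance. Reads per transcript rise with its length, so levels are compared between genes as mean CPM per kilobase of exon, with exon lengths from GENCODE M21. On that scale *Spp1* was the most abundant at 884.8, *Clu* and *Cd24a* followed at 180.7 and 169.0, and *Sox9* was the least abundant at 0.200, a ratio of 4422 between the ends. The median of the 10 was 13.6 CPM per kilobase, beside 3.95 for the 12853 genes listed at 1 CPM or more with a known exon length, and 7 of the 10 lay above that median.

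**Figure D2:**
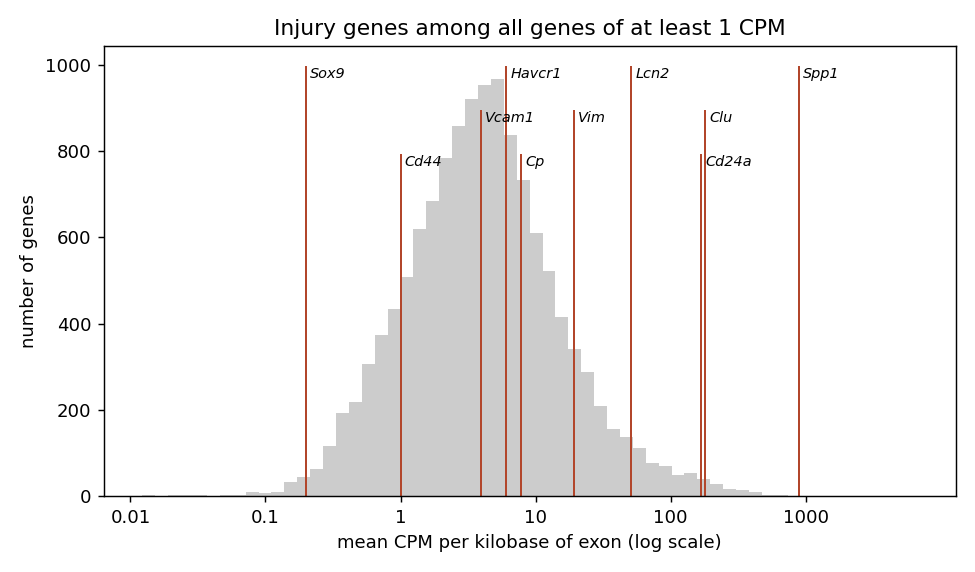
Number of genes (y axis) by mean CPM per kilobase of exon (x axis, log scale) for the 12853 genes listed at 1 CPM or more (grey), with the injury genes as red lines whose heights only separate the names. *Spp1*, *Clu* and *Cd24a* lie in the upper tail, *Vcam1* at 3.93 lies next to the median gene, and *Sox9* at 0.200 lies in the lower tail.

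Among secreted proteins, *Spp1* encodes osteopontin, a phosphoprotein that binds integrins and CD44 and restrains crystal formation in urine. It lies on chromosome 5 of mm10 from 104435118 to 104441050. Its 5 RefSeq entries had means of 1332.95 to 1333.43 CPM, and 3 of the 12853 genes exceeded it per kilobase. *Clu* encodes clusterin, an extracellular chaperone. Its RefSeq entry had a mean of 327.1 CPM, and 96 genes exceeded it per kilobase. A transcript assembled from the reads at the same locus had 153.5 CPM, 46.9% of the RefSeq entry. *Clu* lies on chromosome 14 from 65968483 to 65981547, the chromosome that also carries the miR-17~92 cluster.

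*Lcn2* encodes lipocalin 2, which binds siderophores that carry iron. It lies on the reverse strand of chromosome 2 from 32384633 to 32388252. Its only entry had a mean of 46.9 CPM, or 51.3 CPM per kilobase of its 915 nt of exon, above 96.2% of genes. *Cp* encodes ceruloplasmin, a copper-carrying ferroxidase made in secreted and membrane-anchored forms. It lies on chromosome 3 from 19957054 to 20009145. Its 6 entries had means of 30.3 to 31.4 CPM, and the highest corresponded to 7.80 CPM per kilobase, above 71.8% of genes. *Spp1*, *Clu*, *Lcn2* and *Cp* thus spanned 884.8 to 7.80 CPM per kilobase, and each lay above the median gene.

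Among cell surface proteins, *Cd24a* encodes a small glycoprotein, anchored by lipid, of immature and regenerating epithelium. It lies on chromosome 10 from 43578284 to 43584265. Its only entry had a mean of 306.9 CPM, or 169.0 CPM per kilobase, above 99.2% of genes. It stood close to *Clu*, with a ratio of *Clu* to *Cd24a* of 1.07. *Havcr1* encodes a receptor for phosphatidylserine by which injured proximal tubule cells take up dying cells. Its 4 entries had means of 12.0 CPM, and the level was 6.07 CPM per kilobase, above 64.4% of genes. *Havcr1* lies on chromosome 11 from 46735080 to 46779578. Per kilobase *Havcr1* stood below *Lcn2*, the other gene in common use as an injury marker, at 6.07 against 51.3.

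*Vcam1* encodes an adhesion molecule that binds leukocyte integrins and is also made by activated endothelium. It lies on the reverse strand of chromosome 3 from 116109949 to 116129688. Its only entry had a mean of 13.7 CPM, or 3.93 CPM per kilobase, above 49.9% of genes. *Cd44* encodes the hyaluronan receptor, whose transcripts differ in the variable exons they contain. It lies on the reverse strand of chromosome 2 from 102811141 to 102901665. Its 7 entries had means of 5.36 to 5.64 CPM. The highest, of 5614 nt in 19 exons, gave 1.005 CPM per kilobase, above 14.3% of genes. A *Cd44* entry of 1412 nt in 11 exons had 96.5% of the CPM of the 5614 nt entry. By its own CPM the 1412 nt entry, the shortest annotated for *Cd44*, was at 3.85 CPM per kilobase, next to *Vcam1*. Each *Cd44* entry with a known length lay below *Vcam1*. The CPM of the 5614 nt entry divided by 1412 nt gives 3.99, above 50.4% of genes, which is the level of no single entry. The cell surface genes ran from *Cd24a* at 169.0 to *Cd44*, at 1.005 to 3.85 by the transcript taken.

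*Vim* encodes vimentin, an intermediate filament of mesenchymal cells that injured tubule cells also make. It lies on chromosome 2 from 13573927 to 13582826. Its RefSeq entry had a mean of 42.4 CPM and 19.3 CPM per kilobase, above 88.8% of genes, and an assembled transcript at the locus had 29.1 CPM. *Sox9* encodes a transcription factor of progenitor and regenerating tubule cells. It lies on chromosome 11 from 112782224 to 112787760. With a mean of 0.827 CPM over 4135 nt, it was the only one of the 10 under 1 CPM, and 0.770% of genes of at least 1 CPM lay below it per kilobase. The value was nevertheless above the lowest value in the data, 0.0263 CPM, at which 4617 entries are listed.

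**Figure D3:**
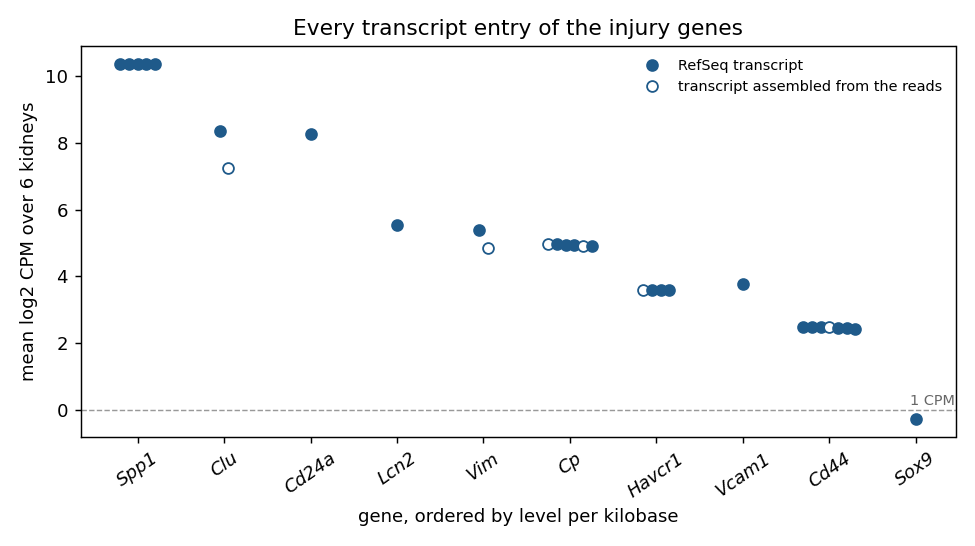
Mean log2 CPM over all 6 kidneys (y axis) for each of the 30 transcript entries of the injury genes, ordered by level per kilobase. Filled points are RefSeq transcripts and open points are transcripts assembled from the reads, and entries of 1 gene nearly coincide except for the open points of *Clu* and *Vim*. The dashed line marks 1 CPM, and only *Sox9* lies under it.

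Entries of 1 gene were mostly near copies of each other. Of the 6 injury genes with several entries, *Spp1*, *Havcr1*, *Cp* and *Cd44* had ranges under 0.1 on the log2 scale, from 0.00053 for *Spp1* to 0.075 for *Cd44*. *Clu* and *Vim*, each with a lower assembled transcript, had ranges of 1.09 and 0.54. Among the 8470 genes with several entries and at least 1 CPM, the median range was 0.16, and 44.2% had a range under 0.1. The annotated *Havcr1* proteins of 282 and 305 residues, the *Cd44* proteins of 365 to 780 residues and the *Cp* proteins of 1061 and 1085 residues therefore cannot be assigned separate levels from these entries.

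Of 22 further genes of tubule injury and dedifferentiation, 21 had a mean of at least 1 CPM, and 13 of the 22 lay above the median gene per kilobase. Their median was 4.86 CPM per kilobase. *S100a6*, a calcium-binding protein, was the highest at 32.6, below *Spp1*, *Clu*, *Cd24a* and *Lcn2*. *Ccl2*, a chemokine that attracts monocytes, was the lowest at 0.680, above *Sox9*. The range of the 22 genes thus lay within that of the 10.

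Known binding partners of the encoded proteins had a lower median, 1.58 CPM per kilobase over 16 genes, and 5 of them were under 1 CPM. *Itgb1*, the integrin chain that pairs with *Itga4* to bind VCAM1, was the highest at 65.3, whereas *Itga4*, a chain mainly of leukocytes, was at 0.655. For LCN2, the endocytic receptor megalin (*Lrp2*) was at 36.7 and the receptor *Slc22a17* at 4.71. For osteopontin, *Itgav* and *Itgb5* were at 12.3 and 11.6, and *Itgb3* was at 0.325. The hyaluronan synthases *Has1*, *Has2* and *Has3*, which make the ligand of CD44, were at 0.0214, 0.0514 and 0.296. The lowest of the remaining partners were *Timd4*, which binds HAVCR1, at 0.0760, and *Siglecg*, which binds CD24, at 0.0539. Beside *Cp*, the iron exporter *Slc40a1* was at 9.83 and the ferroxidase *Heph* at 5.13. In all, 7 of the 16 partners lay above the median gene per kilobase.

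Several of the 10 genes are also expressed outside tubules, and markers of the cells that a whole kidney holds were therefore set beside them. All 10 proximal tubule markers were above the median gene, from 11.4 CPM per kilobase for *Cubn* to 423.1 for *Slc34a1*, the phosphate transporter, with a median of 63.3. *Spp1* exceeded each of them. Thick ascending limb markers had a median of 97.9, from *Cldn16* at 6.06 to *Umod* at 374.4, and collecting duct markers a median of 38.8, from *Scnn1g* at 14.1 to *Aqp2* at 52.2. Podocyte markers ranged from *Nphs1* at 2.22 to *Podxl* at 24.3 with a median of 6.45. The defining markers of the labelled tissue, kidney, were thus present.

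Endothelial markers had a median of 13.6, from *Kdr* at 4.15 to *Emcn* at 23.3, and fibroblast and smooth muscle markers a median of 12.3, from *Myh11* at 3.17 to *Acta2* at 41.1. *Vim*, at 19.3, lay within both ranges, and *Vcam1*, at 3.93, lay just below the lowest endothelial marker. Of the 6 leukocyte markers, 5 had an exon length, with a median of 1.39 and a summed level of 10.04 CPM per kilobase. *Csf1r*, the macrophage growth factor receptor, was the highest at 6.24, and the T cell marker *Cd3e* was the lowest at 0.110. *Ptprc*, the common leukocyte antigen, was at 1.62, between the *Cd44* values of 1.005 with its longest transcript and 3.85 with its shortest. The part that endothelium, fibroblasts and leukocytes have in the levels of *Vim*, *Vcam1* and *Cd44* was not tested.

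**Figure D4:**
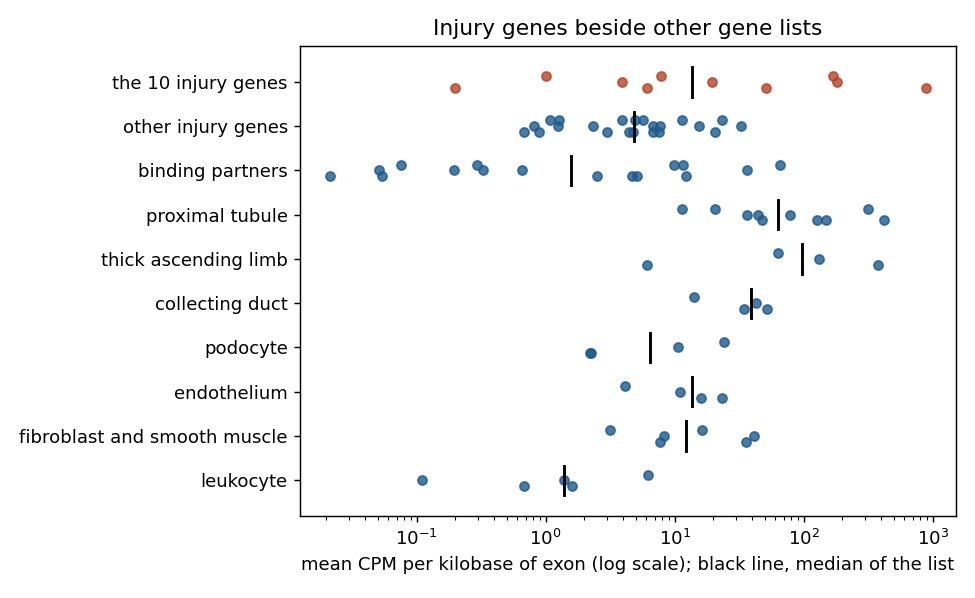
Mean CPM per kilobase of exon (x axis, log scale) of the 10 injury genes (red) and of the genes of 9 other lists (blue), 1 point per gene, with the median of each list as a black line; the vertical offset of points has no meaning. The injury genes run from 0.200 to 884.8, while the medians of the lists run from 1.39 (leukocyte) to 97.9 (thick ascending limb).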

How the data were processed

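Per the labels and the study's methods, stranded total RNA libraries (TruSeq) of 6 kidneys were read as 51 bp single ends. After trimming, the authors aligned them to mm10 with TopHat2 2.0.12 and the iGenomes annotation, and dropped alignments of low mapping quality. The submitters' processing notes also name Cufflinks, featureCounts (Subread 1.4.6) and edgeR 3.2.4. The deposited log2 values are the mean log2 CPM of each transcript over all libraries, computed by the authors. The 4 other columns hold the authors' own comparison of DKO with SKO (fold change, statistic, p-value and adjusted p-value) and were not used. The table holds no value of a single sample, so the planned quasi-likelihood test, its alternatives and leaving out replicates were not run.

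For CPM, each gene was represented by its entry with the highest mean log2 CPM, a tie going to RefSeq. CPM per kilobase used the highest RefSeq entry with a GENCODE M21 transcript (GRCm38, the assembly of mm10). The CPM of this RefSeq entry, which can be lower than that of the gene's highest entry, was divided by its exon length. Such an entry was available for 98.9% of genes with at least 1 CPM. Such CPM per kilobase assumes that reads were counted over the annotated exons, which was not tested. Between entries of *Cd44*, CPM hardly changed with annotated length, at 5.64 for 5614 nt and 5.44 for 1412 nt. A percentile is the share of these genes at a lower level. *Adgre1* was found under an older symbol, and *Cd68* had no length. Seed matches were sought in the 3′ untranslated region of the same transcript. Named genes are all 10 members and, of each list, the highest and the lowest gene. Others named, such as further binding partners, *Ptprc* and the neighbours of a member, were chosen after their values were seen. The members and lists were chosen with earlier results of these data known. *Lrp2* is in 2 lists. Of the leukocyte list, 1 marker is not reported here. Row choice, percentiles and the search were tested on simulated data. Python 3.11.15, numpy 2.4.6 and matplotlib 3.10.9 were used.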

Additional observations from a re-analysis of the deposited data

How the results depend on the processing

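The levels of the injury genes were recomputed under 3 other settings and 1 more chosen after seeing the data, their percentiles against 1 other background, and the seed matches with 1 shorter match. The planned tests of DKO against SKO by DESeq2, without a filter and without each replicate were not run, as they need values of single kidneys. Taking the highest RefSeq entry moved none of the 10 levels at 3 significant digits. Summing the RefSeq entries of a gene gave 6666 CPM for *Spp1*, 123.6 for *Cp*, 36.1 for *Havcr1* and 33.2 for *Cd44*; these sums add entries that hold nearly the same value. When the CPM of each gene's RefSeq entry was divided by the longest annotated exon length, *Cp* was at 6.97 and *Havcr1* at 5.93 CPM per kilobase. Division by the shortest, the alternative chosen after seeing the data, gave 945.7 for *Spp1*, 6.36 for *Havcr1* and 3.99 for *Cd44*. At 3.99 *Cd44* passed *Vcam1*, at 3.93. The shortest *Cd44* entry by its own CPM was at 3.85 and did not. Against all 22662 genes with a length, without the minimum of 1 CPM, the percentiles were 99.6 for *Clu*, 99.5 for *Cd24a*, 97.8 for *Lcn2*, 93.6 for *Vim*, 84.0 for *Cp*, 79.8 for *Havcr1*, 71.5 for *Vcam1*, 50.9 for *Cd44* and 36.3 for *Sox9*. The number of genes with a miR-17 match rose from 2 to 4 when bases 2 to 7 were matched, since a shorter run of letters occurs more often. The labels pair no SKO kidney with a DKO kidney, and the data hold no value of a single kidney. Depth and the spread between kidneys are unknown, so neighbours in the order of levels cannot be separated.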
